A study of Caenorhabditis elegans with 6 samples.

Results

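The genes described here are those whose WormBase public name starts with *fat*, *elo*, *acs*, *acdh*, *ech*, *lbp*, *mboa* or *acl* followed by a number. The rule uses names alone, and it found 84 of the 20240 gene models counted in the study. The 8 families encode fatty acid desaturases (*fat*), fatty acid elongases (*elo*), acyl-CoA synthetases (*acs*), acyl-CoA dehydrogenases (*acdh*), enoyl-CoA hydratases (*ech*), fatty-acid-binding proteins (*lbp*), membrane-bound O-acyltransferases (*mboa*) and glycerolipid acyltransferases (*acl*). RNA was sequenced from the AB cell, the larger anterior daughter of the first division of the *C. elegans* embryo, and from the P1 cell, its smaller posterior sister. There were 3 libraries of each cell, and each library was made from 20 cells separated by hand, pooled and amplified before sequencing (RNA-amp-seq). All embryos came from gravid adults of the wild-type strain N2 and all had their eggshells removed with bleach and with chitinase and chymotrypsin. The cells of an AB library and of the P1 library with its replicate number were matched, and such libraries are called a pair below.

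Fatty acids are built from acetyl-CoA, lengthened by elongases and given double bonds by desaturases, so that a worm can make its long polyunsaturated fatty acids itself. An acyl-CoA synthetase must activate a fatty acid before it can be built into membrane and storage lipids by acyltransferases, or shortened by acyl-CoA dehydrogenases and enoyl-CoA hydratases in beta-oxidation. In the adult, much of this metabolism takes place in the intestine, which also makes the vitellogenins (yolk proteins) that carry lipid to the oocyte. At the time of the first division the RNA of the embryo is maternal, so a difference between AB and P1 concerns RNA that was inherited from the egg.

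Library totals ran from 21249850 to 35591254 counted reads, at which 3 reads are worth between 0.0843 and 0.141 CPM, the count scaled to 1000000 reads per library. All 10 maternal marker genes were present in both cells, with a summed level of 8489 to 12073 CPM per library. Of 14 intestinal markers 13 had at least 1 read, and their summed level was 13.5, 4.55 and 3.54 CPM in AB replicates 1 to 3 and 15.1, 3.91 and 6.63 CPM in P1 replicates 1 to 3, with *ges-1* at 0 in every library. Most of the intestinal marker reads in the pair of replicate 1 fell on the 6 vitellogenin genes, with 286 reads in AB and 256 in P1 against 2 to 9 reads in each of the other 4 libraries. The other intestinal markers did not share 1 order. *asp-1* was also highest in this pair (33 reads in AB and 24 in P1), but *elt-7* was lowest there (19 and 4, against 55 to 87). *mtl-1* (33 reads) and *ifb-2* (13 reads) had reads in P1 replicate 3 alone. The summed level of 5 muscle markers was 2.37 to 11.8 CPM, that of 3 neuronal markers was 30.4 to 41.6 CPM and that of 5 hypodermal markers was 0 to 0.753 CPM, with *rol-6*, *bli-1* and *col-10* at 0 in every library. Among the neuronal markers, *unc-119* held 717 to 1113 reads per library, *egl-3* 21 to 135 and *snt-1* at most 17. Of 7 sperm genes only *gsp-3* had a read. P1 replicate 1 had reads on the fewest gene models (8575) and P1 replicate 3 on the most (11638).

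Most of the fatty acid genes had reads in these libraries, at very unequal levels. Reads fell on 76 of the 84 genes, and 56 (66.7%) were present, which means a mean above 10 normalized read counts over the 6 libraries and a level above 0 in each cell. The same filter kept 39.3% of all gene models. Some genes passed it through few libraries. *acs-14* (50 and 128 reads) and *acs-22* (44 and 47 reads) had reads only in AB replicate 2 and P1 replicate 3. A normalized read count is the number of reads on a gene divided by a size factor of its library. The 8 genes without a read were *acs-10*, *acs-15*, *acs-18*, *acdh-6*, *ech-7*, *ech-9*, *lbp-8* and *mboa-5*, and the other 20 genes that were not present had few reads. A count of 0 allows up to 3 reads, or 2.22 to 4.07 normalized read counts depending on the library. By family, 11 of 12 *acl*, 9 of 12 *acdh*, 6 of 9 *ech*, 14 of 21 *acs*, 5 of 8 *elo*, 4 of 7 *fat*, 3 of 6 *mboa* and 4 of 9 *lbp* genes were present.

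Levels between genes were compared per kilobase (kb) of spliced length, and only roughly, since amplification was primed from the poly(A) tail. On this scale the highest mean normalized read counts per kb belonged to the fatty-acid-binding protein gene *lbp-9* (16938), the elongase gene *elo-1* (9686), the desaturase gene *fat-1* (9452) and the acyl-CoA synthetase gene *acs-13* (7813). The median over the 56 present genes was 538, below the median of 831 over all present genes, while the median spliced length was nearly the same (1516 and 1546 bases). Reads were concentrated on few genes: the 5 genes with the most reads held 39.8% of the reads of the set and the 10 with the most held 66.9%. The mean was above 1000 normalized read counts for 26 genes, between 10 and 1000 for 30, and 10 or less for 28. Together the 84 genes took 0.618, 0.568 and 0.586% of the reads of AB replicates 1 to 3 and 0.728, 0.628 and 0.624% of the reads of P1 replicates 1 to 3. Each P1 share was above each AB share, and the highest was that of P1 replicate 1. This order depended on a single gene, *lbp-9*, with 4697, 5442 and 9590 reads in AB and 16675, 5239 and 11786 in P1. Without its reads the share of AB replicate 1 would be above that of P1 replicate 3.

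**Figure D1:**
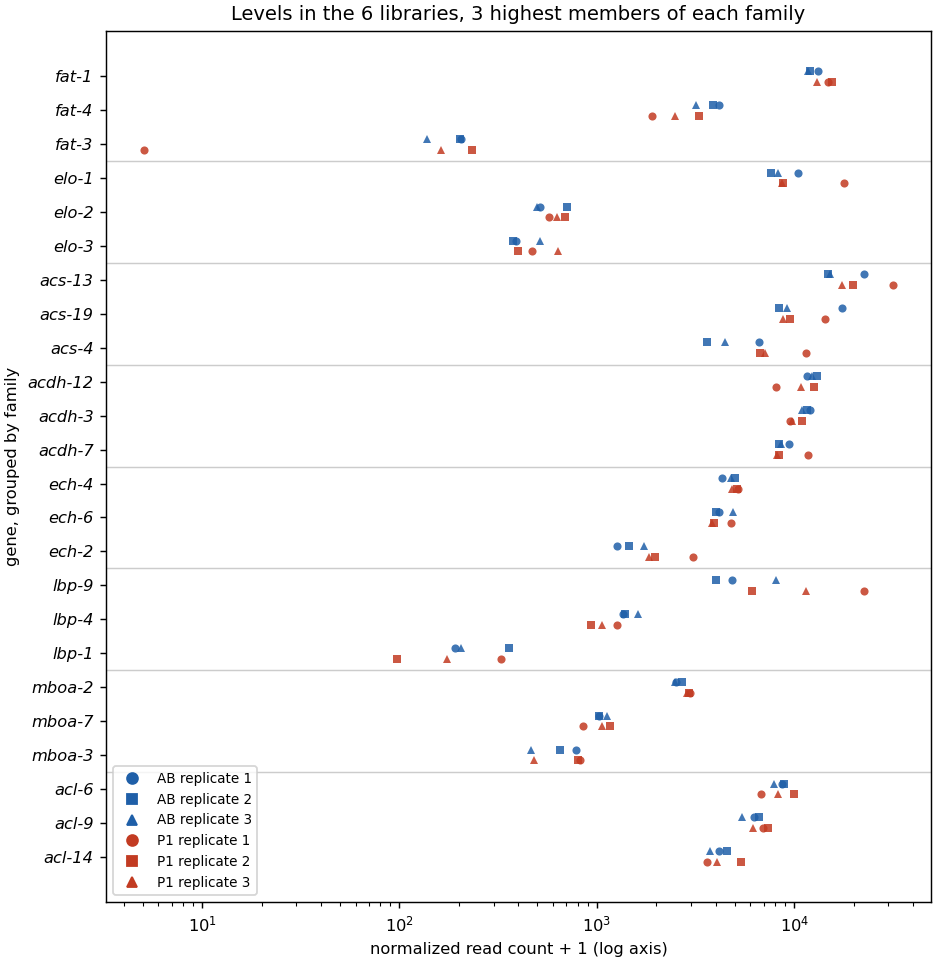
Normalized read count plus 1 (log axis) of the 3 present genes with the highest mean in each family, with 1 point for each of the 6 libraries (blue, AB; red, P1; circle, square and triangle for replicates 1, 2 and 3). In most rows the blue and red points lie close together, and *fat-3*, *elo-1* and *lbp-9* have P1 replicate 1 far from the other libraries.

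The comparison of P1 with AB asked which of these RNAs differed in level between the cells after the first division. Of the 56 present genes, 3 were higher in P1 (*acdh-13*, *acl-2* and *lbp-9*) and 0 were higher in AB, by edgeR with an adjusted p under 0.10. Over all 7945 present genes the same test called 0.856% higher in P1 and 0.604% higher in AB. The share of the set called higher in P1 was 5.36%. At an unadjusted p under 0.05, 7 present genes of the set were higher in P1 and 1 (*fat-4*) was higher in AB, where 5.80% and 4.59% of all present genes were. DESeq2 called 2 genes of the set higher in P1 and 0 higher in AB, and 1.20% and 0.944% of all present genes. Libraries give levels relative to the other RNAs of a cell, so a relative level and an amount per cell cannot be told apart here.

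Small fold changes made up a similar share of the set and of all present genes. The log2 fold change, P1 over AB throughout, was within 0.3 of 0 for 28 of the 56 present genes (50.0%) and for 52.4% of all present genes. Its median was 0.10 in the set and 0.01 over all present genes. The median coefficient of variation of the 3 libraries was 22.3% in AB and 28.9% in P1 for the set, and 15.5% and 29.2% for all present genes. All 3 P1 libraries were above all 3 AB libraries for 5 present genes (8.93%), namely *acs-4*, *acdh-13*, *ech-2*, *mboa-2* and *acl-2*, where 7.10% of all present genes showed this order. All 3 AB libraries were above all 3 P1 libraries for *acs-11*, *ech-1* and *lbp-4* (5.36%), where the share of all present genes was 8.81%.

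**Figure D2:**
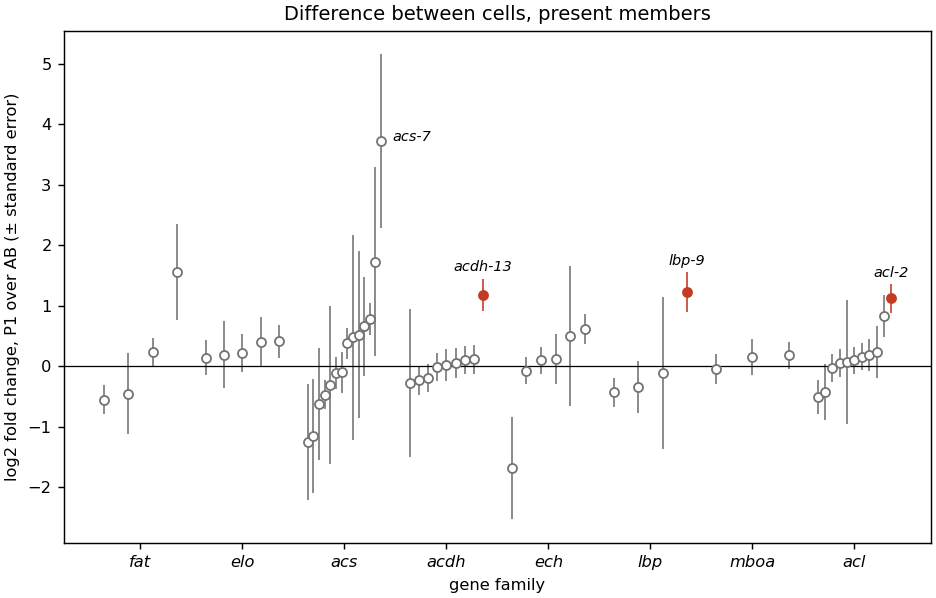
Log2 fold change (P1 over AB) with a standard error derived from the edgeR F statistic for the 56 present genes, ordered by value within each family. Filled red points are the 3 genes called higher in P1 (*acdh-13*, *lbp-9* and *acl-2*), which lie between 1.12 and 1.23, and the wide error bars belong to genes with few reads such as *acs-7*.

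The desaturase genes ranged from abundant RNA (*fat-1* and *fat-4*) over low levels (*fat-3* and *fat-2*) to a few reads in 1 or 2 libraries (*fat-5*, *fat-6* and *fat-7*). *fat-1* encodes the omega-3 desaturase, *fat-2* the delta-12, *fat-3* the delta-6 and *fat-4* the delta-5 desaturase, which together make polyunsaturated fatty acids, whereas *fat-5*, *fat-6* and *fat-7* encode delta-9 desaturases that put the initial double bond into saturated fatty acids. *fat-1* had 13124, 12044 and 11753 normalized read counts in AB replicates 1 to 3 and 14832, 15503 and 13047 in P1 replicates 1 to 3. These libraries overlapped, and *fat-1* alone held 79.8% of the reads of its family. *fat-4* had 4166, 3882 and 3186 in AB and 1910, 3288 and 2499 in P1, so that P1 replicates 1 and 3 lay below every AB library. Its log2 fold change was -0.55 ± 0.24 (SE, adjusted p = 0.549 by edgeR) and did not pass the test.

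The other desaturase genes were low. *fat-3* had 204, 202 and 137 normalized read counts in AB and 4.07, 231 and 161 in P1. A drop to 3 reads in P1 replicate 1 set its P1 level apart from that of the other 5 libraries, and without this library its log2 fold change went from -0.45 to 0.10. *fat-2* had 10.3, 53.3 and 21.0 in AB and 132, 43.0 and 78.7 in P1, which overlapped (log2 fold change 1.56 ± 0.79, SE, adjusted p = 0.647 by edgeR). The 3 delta-9 desaturase genes, which are known for their expression in the intestine, were not present. *fat-5* had 21 reads in P1 replicate 3 alone, *fat-6* had 12 reads in P1 replicate 1 and 32 in P1 replicate 3, and *fat-7* had 12 reads in AB replicate 1 alone. AB and P1 replicate 1 are the libraries with the most vitellogenin reads, and P1 replicate 3 is the library with reads on the most gene models. The part of these features in the desaturase reads was not tested.

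Among the elongase genes *elo-1*, which encodes the elongase of polyunsaturated fatty acids, held 87.9% of the reads of its family. It had 10467, 7591 and 8314 normalized read counts in AB and 17872, 8786 and 8629 in P1. Only P1 replicate 1 stood above the AB range. The log2 fold change of 0.41 ± 0.27 (SE, adjusted p = 0.691 by edgeR) became -0.04 without this library. *elo-2*, whose product lengthens palmitate, had 571 ± 115 in AB and 631 ± 58.2 in P1, and *elo-3* had 426 ± 77.7 and 499 ± 120 (mean ± SD, n = 3). *elo-5* and *elo-6* act on the branched-chain fatty acids of the worm, and *elo-6* had 133 to 308 reads per library whereas *elo-5* had 0 to 2. *elo-4* was also present, and *elo-7* and *elo-9* had at most 6 reads in a library. The adjusted p of the 5 present elongase genes was 0.691 to 0.930 by edgeR.

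The acyl-CoA synthetase family is the largest of the set, and 3 of its 21 genes held most of its reads. *acs-13*, related to the mammalian long-chain acyl-CoA synthetases, had 22602, 14884 and 15192 normalized read counts in AB and 31704, 19958 and 17398 in P1. *acs-19*, which encodes an acetyl-CoA synthetase, had 17553, 8388 and 9207 in AB and 14308, 9513 and 8773 in P1. Both genes were higher in the pair of replicate 1 than in the other pairs, in AB as in P1, and for both the cells overlapped. Their log2 fold changes were 0.38 ± 0.26 and -0.11 ± 0.27 (SE, adjusted p = 0.702 and 0.912 by edgeR), and the difference among pairs did not pass the test either (adjusted p = 0.334 and 0.232 by edgeR's F test).

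*acs-4* (F37C12.7, chromosome III, 7167775 to 7170930 in ce10), another long-chain acyl-CoA synthetase gene, was the gene of the family whose libraries did not overlap with P1 on top. It had 6640, 3612 and 4451 normalized read counts in AB and 11443, 6745 and 7090 in P1. P1 was above its AB partner in every pair, by 0.79, 0.90 and 0.67 on the log2 scale, although the lowest P1 library was only just above the highest AB library. The log2 fold change was 0.78 ± 0.26 (SE), and with an adjusted p of 0.265 by edgeR (0.158 with the pairs as a block) it was not called. When a library or a pair was left out it passed in 4 of 9 fits. The adjusted p by edgeR was 0.0760 without P1 replicate 1, 0.0414 without P1 replicate 2 and 0.0827 without P1 replicate 3. Without the pair of replicate 1 it was 1.9e-05 by edgeR. In the same order, these fits called 255, 284, 143 and 293 of all present genes higher in P1, against 68 with all libraries.

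Of the other synthetase genes, *acs-11* had 1884, 1858 and 1935 normalized read counts in AB and 983, 1590 and 1526 in P1. Each AB library was above each P1 library, but the log2 fold change of -0.47 ± 0.24 (SE, adjusted p = 0.661 by edgeR) did not pass the test. *acs-20*, a member of the fatty acid transport protein type of synthetase, had 493 ± 107 in AB and 459 ± 200 in P1 (mean ± SD, n = 3). The 9 remaining present genes of the family were below 100 normalized read counts on average and were uneven between libraries. *acs-7*, which acts on the side chains of ascaroside pheromones in the peroxisome, had 0, 11.1 and 2.52 in AB and 0, 3.49 and 185 in P1. *acs-14* had 0, 37.0 and 0 in AB and 0, 0 and 124 in P1. In both, P1 replicate 3 held nearly all P1 reads. Their log2 fold changes were 3.72 ± 1.43 and 1.73 ± 1.56 (SE, adjusted p = 0.426 and 0.746 by edgeR). Without P1 replicate 3 that of *acs-7* was -1.30, and *acs-14* had no P1 read left.

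These 2 genes also show how far a call on few reads can move. Without AB replicate 2, the only AB library with more than 3 reads of either, edgeR called *acs-7* (log2 fold change 5.44, adjusted p = 0.0384) and *acs-14* (adjusted p = 0.0215, with no AB read left) higher in P1, and it called both without the pair of replicate 2 (adjusted p = 0.0373 and 0.0297). *acs-7* was also called without P1 replicate 1, P1 replicate 2 or the pair of replicate 1 (adjusted p = 1.6e-05, 0.0117 and 0.000105 by edgeR), libraries with 0 to 3 reads of it. The latter fits called 255, 284 and 293 of all present genes higher in P1, against 68 with all libraries. *acs-1*, which activates branched-chain fatty acids, had 46.5, 6.67 and 8.39 normalized read counts in AB and 0, 5.81 and 42.8 in P1, again high in single libraries. *acs-2*, a mitochondrial synthetase that feeds beta-oxidation, was not present, with 0 to 11 reads per library.

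The summed level of the acyl-CoA dehydrogenase genes was nearly the same in both cells. Their summed normalized read count was 46324 ± 789 in AB and 45391 ± 2823 in P1 (mean ± SD, n = 3). *acdh-12*, which encodes a very-long-chain acyl-CoA dehydrogenase, had 11565, 13055 and 12259 in AB and 8099, 12642 and 10863 in P1. *acdh-3* had 11995, 11558 and 10943 in AB and 9515, 10979 and 9771 in P1. Both genes overlapped between the cells, with P1 replicate 1 lowest. Log2 fold changes were -0.23 ± 0.24 for *acdh-12* and -0.19 ± 0.23 for *acdh-3* (SE, adjusted p = 0.747 and 0.772 by edgeR). *acdh-3* shares 92 exon bases with *knl-2* on the opposite strand. The medium-chain acyl-CoA dehydrogenase gene *acdh-7* had 8795 ± 583 in AB and 9446 ± 2028 in P1, and its relative *acdh-10* had 8044 ± 410 and 8815 ± 2481. *acdh-11*, whose product binds medium-chain fatty acids and acts upstream of *fat-7*, had 2844 ± 294 and 2826 ± 471. *acdh-1*, of the propionate breakdown pathway, was not present, with 29 reads in AB replicate 2 and at most 2 in any other library.

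*acdh-13* (C28C12.9, chromosome IV, 8496626 to 8498858 in ce10), a further acyl-CoA dehydrogenase family gene, was higher in P1. It had 467, 752 and 612 normalized read counts in AB replicates 1 to 3 and 1045, 1729 and 1384 in P1 replicates 1 to 3. No libraries overlapped, and within each cell replicate 1 was lowest and replicate 2 highest. The means were 610.2 ± 142.4 and 1385.9 ± 341.6 (SD, n = 3), and the log2 ratio within a pair was 1.16, 1.20 and 1.18. The log2 fold change was 1.18 ± 0.27 (SE, adjusted p = 0.0370 by edgeR). The call was lost in 3 of the 9 fits without a library or a pair (adjusted p of 0.248 without AB replicate 1, 0.343 without the pair of replicate 2 and 0.251 without the pair of replicate 3, by edgeR), where the log2 fold change was still 1.00, 1.16 and 1.19. It was also lost with only the present genes, or only those kept by edgeR's filterByExpr, in the fit (adjusted p = 0.190 and 0.178 by edgeR).

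The enoyl-CoA hydratase genes included 1 with non-overlapping libraries in each direction, and neither was called. *ech-6*, which encodes the mitochondrial short-chain enoyl-CoA hydratase, averaged 4362 ± 458 normalized read counts in AB and 4187 ± 530 in P1, and *ech-4*, an enoyl-CoA isomerase with an acyl-CoA-binding domain, had 4703 ± 367 and 5051 ± 191 (mean ± SD, n = 3). *ech-2* had 1266, 1460 and 1731 in AB and 3078, 1960 and 1841 in P1. Every P1 library was above every AB library, mainly in the pair of replicate 1, and the log2 fold change was 0.62 ± 0.25 (SE, adjusted p = 0.472 by edgeR). *ech-1*, which encodes the alpha subunit of the trifunctional protein of mitochondrial beta-oxidation, had 77.5, 63.7 and 36.9 in AB and 13.6, 16.3 and 25.3 in P1. Every AB library was above every P1 library, on 10 to 86 reads, with a log2 fold change of -1.68 ± 0.85 (SE, adjusted p = 0.649 by edgeR).

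The fatty-acid-binding protein genes were dominated by *lbp-9* (Y40B10A.1, chromosome V, 2068447 to 2069142 in ce10), which held 86.2% of the reads of the family. It had 4853, 4031 and 8047 normalized read counts in AB and 22641, 6090 and 11452 in P1. P1 replicate 2 lay below AB replicate 3, so the cells overlapped, yet P1 was above its AB partner in every pair. The log2 ratio was 2.22 in the pair of replicate 1 and 0.60 and 0.51 in the other pairs, and the means were 5644 ± 2121 in AB and 13394 ± 8444 in P1 (SD, n = 3). The log2 fold change of 1.23 ± 0.33 (SE) had an adjusted p of 0.0990 by edgeR, just inside the threshold. With the pairs as a block it was 1.09 with an adjusted p of 0.349 by edgeR, so the call was lost, and DESeq2 did not make it either (adjusted p = 0.164). The call was also lost in edgeR with median-of-ratios size factors (adjusted p = 0.101) and with all gene models in the fit (0.146). With only the present genes or with filterByExpr it was lost too (adjusted p = 0.632 and 0.617 by edgeR).

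P1 replicate 1 carried the size of the *lbp-9* difference. Without this library the log2 fold change was 0.61 (adjusted p = 0.00772 by edgeR). Without the pair of replicate 1 it was 0.53 (adjusted p = 0.0154 by edgeR), so the call remained at a smaller size. These fits called 255 and 293 of all present genes higher in P1, against 68 with all libraries. The call was lost without AB replicate 1 (1.11, adjusted p = 0.292 by edgeR) and without AB replicate 2 (1.04, adjusted p = 0.150 by edgeR). P1 replicate 1 held 256 vitellogenin reads. Its AB partner held 286, with an *lbp-9* level between those of the other AB libraries. The part of such reads in the *lbp-9* difference was not tested.

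The other *lbp* genes did not pass the test. *lbp-4* had 1357, 1387 and 1624 normalized read counts in AB and 1257, 928 and 1065 in P1. Every AB library was above every P1 library, with a log2 fold change of -0.43 ± 0.24 (SE, adjusted p = 0.682 by edgeR), and edgeR called it higher in AB without P1 replicate 1 (-0.57, adjusted p = 0.0983) and without the pair of replicate 1 (-0.60, adjusted p = 0.0503). The table places *lbp-4* and *ech-3* at a location that it gives for 160 gene models, so no coordinates are given for them. *lbp-1*, *lbp-2* and *lbp-3* are predicted to be secreted, and only *lbp-1* exceeded 100 normalized read counts, with 190, 356 and 203 in AB and 327, 96.5 and 173 in P1. Its order differed between pairs, and it was called higher in AB only without the pair of replicate 1 (log2 fold change -1.05, adjusted p = 0.0992 by edgeR). Of all present genes, 279 were called higher in AB without P1 replicate 1 and 239 without this pair, against 48 with all libraries. *lbp-8*, whose product carries a lipid signal from lysosome to nucleus in the intestine, had no read.

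Of the acyltransferase genes, 11 of 12 *acl* and 3 of 6 *mboa* genes were present, and *acl-2* alone was called. *acl-6*, which encodes a mitochondrial glycerol-3-phosphate acyltransferase, averaged 8467 ± 494 normalized read counts in AB and 8336 ± 1595 in P1, and *acl-9*, which acts on phosphatidylinositol, had 6093 ± 622 and 6831 ± 572 (mean ± SD, n = 3). *acl-14* had 4173 ± 420 and 4352 ± 930, although it shares 73 exon bases with *tag-153* on the opposite strand, and *acl-3*, the tafazzin homologue that remodels cardiolipin, had 2932 ± 155 and 3162 ± 177. *mboa-2*, a relative of the mammalian diacylglycerol acyltransferases, had 2520, 2702 and 2476 in AB and 2954, 2946 and 2869 in P1. All its P1 libraries were above all its AB libraries by a narrow margin, and the log2 fold change of 0.18 ± 0.22 (SE, adjusted p = 0.772 by edgeR) did not pass the test. *mboa-7*, which puts polyunsaturated fatty acids into phosphatidylinositol, had 1056 ± 57.7 and 1025 ± 158, and *mboa-3* had 630 ± 160 and 701 ± 192.

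*acl-2* (T06E8.1, chromosome V, 10020518 to 10031069 in ce10), which encodes a lysophosphatidic acid acyltransferase, was higher in P1. It had 945, 1010 and 1402 normalized read counts in AB and 2644, 2288 and 2432 in P1. The cells did not overlap, and the P1 libraries were closer to each other than the AB libraries. The means were 1119 ± 247 and 2454 ± 179 (SD, n = 3), with a log2 ratio of 1.48, 1.18 and 0.79 in pairs 1 to 3. The log2 fold change was 1.12 ± 0.24 (SE, adjusted p = 0.0163 by edgeR). The call was lost in 3 of the 9 fits without a library or a pair, with an adjusted p by edgeR of 0.164 without AB replicate 1, 0.121 without AB replicate 2 and 0.271 without the pair of replicate 2, where the log2 fold change was 0.99, 1.06 and 1.10.

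The table gives *acl-2* the same location as *lea-1*, a gene that overlaps its exons by 19 bases on the opposite strand, so reads of the pair could be confused where strand was not used. *lea-1* had 12967, 13102 and 17609 normalized read counts in AB and 10004, 12713 and 19508 in P1. Its cells overlapped, with a log2 fold change of -0.05 ± 0.26 (SE, adjusted p = 0.966 by edgeR). The part of *lea-1* reads in the *acl-2* values was not tested. *acl-1*, the other lysophosphatidic acid acyltransferase gene, had 412, 224 and 385 in AB and 959, 379 and 495 in P1. P1 was above AB in every pair but the cells overlapped, and the log2 fold change was 0.83 ± 0.35 (SE, adjusted p = 0.512 by edgeR). Without P1 replicate 2, its lowest P1 library, *acl-1* was called (1.06, adjusted p = 0.0945 by edgeR). That fit called 284 of all present genes higher in P1, against 68 with all libraries.

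**Figure D3:**
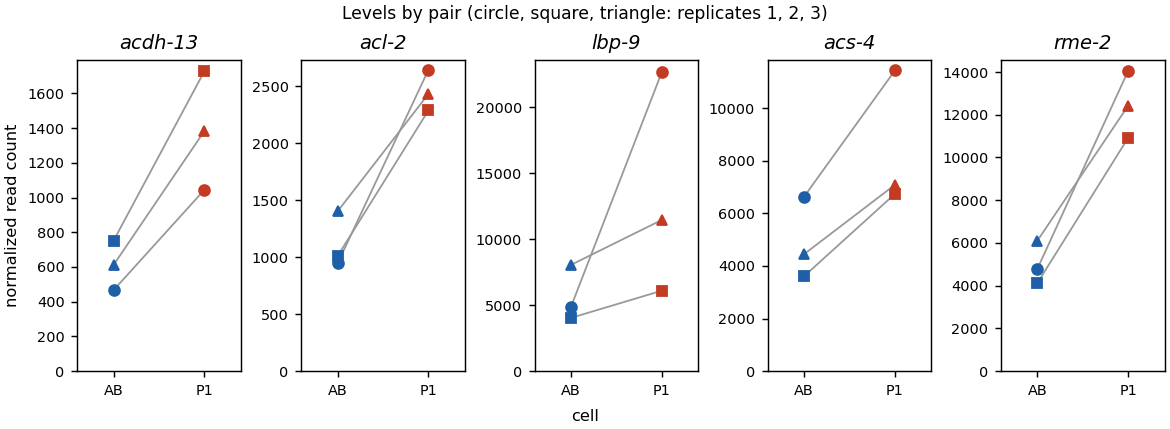
Normalized read count in AB (blue) and P1 (red) of *acdh-13*, *acl-2*, *lbp-9*, *acs-4* and the yolk receptor gene *rme-2*, with a line joining the libraries of a pair (circle, square and triangle for replicates 1, 2 and 3) and an axis that starts at 0. Every line rises towards P1, in parallel for *acdh-13* (log2 ratio 1.16 to 1.20) and most steeply in the pair of replicate 1 for *lbp-9* (2.22).

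Several genes of the set lie next to each other, and neighbours often differed widely in level. The set is spread over all 6 chromosomes, with 22 genes on IV, 21 on V, 14 on X, 10 on I, 10 on II and 7 on III. Within 10000 bases of each other lay 10 pairs of the genes, all in the same orientation. *acdh-10* and *acdh-7* on chromosome X are 111 bases apart and had nearly equal levels, 6090 and 6786 normalized read counts per kb. The ratio of *acdh-10* to *acdh-7* in normalized read counts was 0.858 to 0.988 in the 6 libraries, and P1 replicate 1 was highest for both. No other pair of neighbours had levels this close.

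For the desaturases, *fat-1* had 9452 normalized read counts per kb and *fat-2* 44.9, a 211-fold difference over a distance of 5073 bases, and *fat-4* had 2049 and *fat-3* 105, a 19.5-fold difference over 805 bases. *elo-1* had 9686 per kb and its neighbour *elo-7* 0.108, from 1 read in all. *acl-9* had 4532 and *acl-8* 287, and *lbp-1* had 404 and *lbp-3* 29.6. How reads that match more than 1 place were treated is not given in the sources used here, so values of close relatives are uncertain where their sequences are alike.

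**Figure D4:**
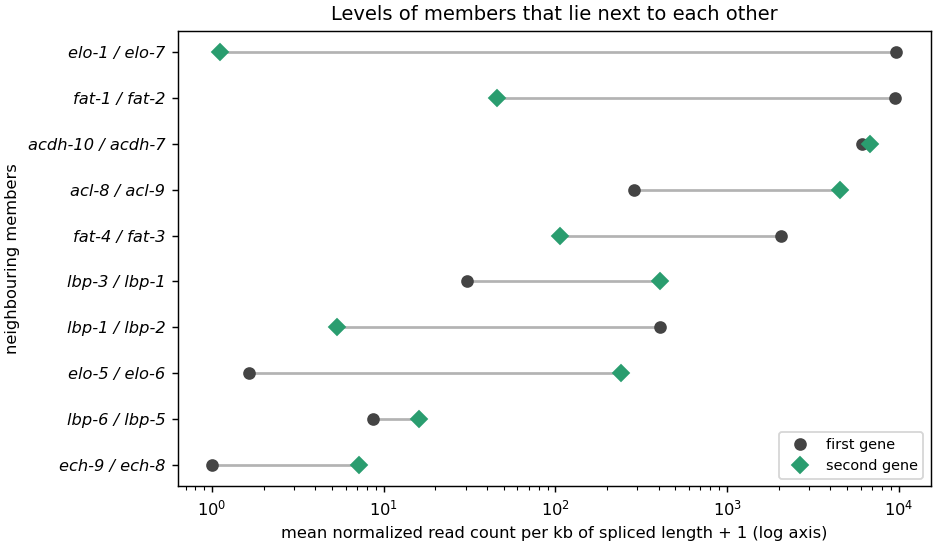
Mean normalized read count per kb of spliced length plus 1 (log axis) for the 10 pairs of the genes that lie within 10000 bases of each other, with a circle for the first and a diamond for the second gene named. *acdh-10* and *acdh-7* nearly coincide at 6090 and 6786 per kb, while *elo-1* and *elo-7* stand at opposite ends of the axis.

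By an F test of the replicate terms in edgeR, 1 of the 56 present genes differed among the 3 pairs, where 2.10% of all present genes did. This was *acl-8* (T05H4.1, chromosome V, 6450880 to 6452214 in ce10), whose product acts with that of *acl-9* on phosphatidylinositol. It had 781, 180 and 409 normalized read counts in AB replicates 1 to 3 and 648, 126 and 255 in P1 replicates 1 to 3. Both cells gave the same order, with the pair of replicate 1 highest and that of replicate 2 lowest, and the pair means were 714, 153 and 332 (adjusted p = 0.0322 by edgeR's F test). With only the present genes in the fit the adjusted p was 0.149 and the call was lost. *acl-9*, 963 bases away on the same strand, had 5416 to 7346 and no such order (adjusted p = 0.940 by edgeR's F test). Between AB and P1 *acl-8* was called higher in AB only without P1 replicate 1 (log2 fold change -1.29, adjusted p = 0.00215 by edgeR). That fit called 279 of all present genes higher in AB, against 48 with all libraries.

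Genes with few reads were highest most often in P1 replicate 3, in the set as in the whole table. Of the 35 genes of the set with reads and a mean of at most 100 normalized read counts, 14 (40.0%) had their highest level in this library, 9 (25.7%) had it in AB replicate 2 and 0 had it in P1 replicate 2. Over the 7548 gene models in the same range, the shares were 36.9% in P1 replicate 3, 16.2% in AB replicate 2 and 9.19% in P1 replicate 2. Reads fell on 61, 69 and 67 of the 84 genes in AB replicates 1 to 3 and on 56, 62 and 71 in P1 replicates 1 to 3, in the order of the gene models with a read in each library.

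Other lipid genes were examined from a list of 77 names, of which 59 were in the table and 41 were present. Of these, 1 was called higher in P1 and 0 in AB by edgeR, and the median log2 fold change was 0.09. At an unadjusted p under 0.05, 6 were higher in P1 and 1 in AB (5.80% and 4.59% of all present genes), and DESeq2 called 2 higher in P1 and 0 in AB (1.20% and 0.944% of all present genes). The called gene was *rme-2*, which encodes the receptor that takes yolk into the oocyte. It had 4788, 4122 and 6103 normalized read counts in AB and 14061, 10925 and 12427 in P1. Each P1 library was far above each AB library, with a log2 fold change of 1.31 ± 0.24 (SE, adjusted p = 0.00344 by edgeR), and the call was lost only without the pair of replicate 2 (1.27, adjusted p = 0.124 by edgeR). *pod-2*, which encodes acetyl-CoA carboxylase, had 407, 247 and 488 in AB and 945, 559 and 1042 in P1. It also had no overlap, and its log2 fold change of 1.15 missed the threshold at an adjusted p of 0.128 by edgeR. It passed with the pairs as a block (0.0672 by edgeR), in DESeq2, and in edgeR without AB replicate 3, P1 replicate 1, P1 replicate 2 or the pair of replicate 1. In the same order, these omissions gave 118, 255, 284 and 293 of all present genes called higher in P1, against 68 with all libraries. *fasn-1*, which encodes fatty acid synthase, had 14.5, 85.2 and 15.9 in AB and 10.9, 6.97 and 8.74 in P1. It was called higher in AB only without the pair of replicate 1, a fit that called 239 of all present genes higher in AB, against 48 with all libraries.

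Among the lipid-binding genes of the list, which include *rme-2*, the summed level was 330, 338 and 459 CPM in AB and 762, 575 and 685 CPM in P1, without overlap. *rme-2* alone held 4634, 5565 and 7273 of the 8890, 12032 and 14140 reads of this group in AB. In P1 it held 10356, 9398 and 12789 of 16182, 13393 and 17964. Without its reads the cells would overlap. By edgeR and by DESeq2, 0 of 7 present regulators were called and 0 had an unadjusted p under 0.05. Among them *nhr-49*, a nuclear receptor that controls desaturase and oxidation genes, averaged 4859 ± 1017 normalized read counts in AB and 3774 ± 339 in P1 (mean ± SD, n = 3). *sbp-1*, the sterol regulatory element binding protein gene, had 899 ± 144 and 679 ± 68.1. Among 4 present genes of mitochondrial oxidation, *cpt-1*, the carnitine palmitoyltransferase gene, had 13277 ± 1355 and 13195 ± 472. Of 12 present phospholipid genes and 5 present sphingolipid genes 0 were called by edgeR or DESeq2, and 1 of each group had an unadjusted p under 0.05. Of 12 names listed for triglyceride storage and lipolysis, 7 were in the table (*lipl-1*, *lipl-2*, *lipl-3*, *lipl-4*, *lipl-5*, *fil-1* and *fil-2*). None of these 7 was present, with 0 to 10 reads in all per library. The names *dgat-2*, *atgl-1*, *hosl-1*, *lid-1* and *plin-1* were not matched, so the levels of these genes were not examined.

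Peroxisomal genes, among them genes of the beta-oxidation route that shortens ascaroside side chains with *acs-7* upstream, were highest in a single library, P1 replicate 3. Many other genes with few reads were as well: 36.9% of the 7548 gene models with a mean of at most 100 normalized read counts. The muscle marker *mlc-2* (178 normalized read counts) and the neuronal marker *egl-3* (131) were also highest there. The 7 genes were *acox-1*, *maoc-1*, *dhs-28*, *daf-22*, *prx-5*, *pmp-4* and *ctl-2*, not all of which encode enzymes of this route. Together they had 32, 209 and 29 reads in AB replicates 1 to 3 and 9, 35 and 1310 in P1 replicates 1 to 3. In P1 replicate 3, *ctl-2* had 206 reads, *pmp-4* 85 and *prx-5* 21. P1 replicate 3 thus held most of the reads, with *daf-22*, the peroxisomal thiolase gene, at 386 and *dhs-28* at 313 normalized read counts. *acs-7* had 190 of its 211 reads in the same library. None of the 7 was called by edgeR with all libraries (adjusted p = 0.238 for *daf-22* and 0.296 for *dhs-28*). Both were called without AB replicate 2, P1 replicate 1, P1 replicate 2, the pair of replicate 1 or the pair of replicate 2, and *daf-22* also without AB replicate 3. In the same order, these fits called 53, 255, 284, 293, 44 and 118 of all present genes higher in P1, against 68 with all libraries. Each of them kept P1 replicate 3. The intestinal marker level of P1 replicate 3 was 6.63 CPM. It had 2 vitellogenin reads, but also 33 reads on *mtl-1* and 13 on *ifb-2*, which had no read in any other library. The source of the peroxisomal and *acs-7* reads was not tested.

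**Figure D5:**
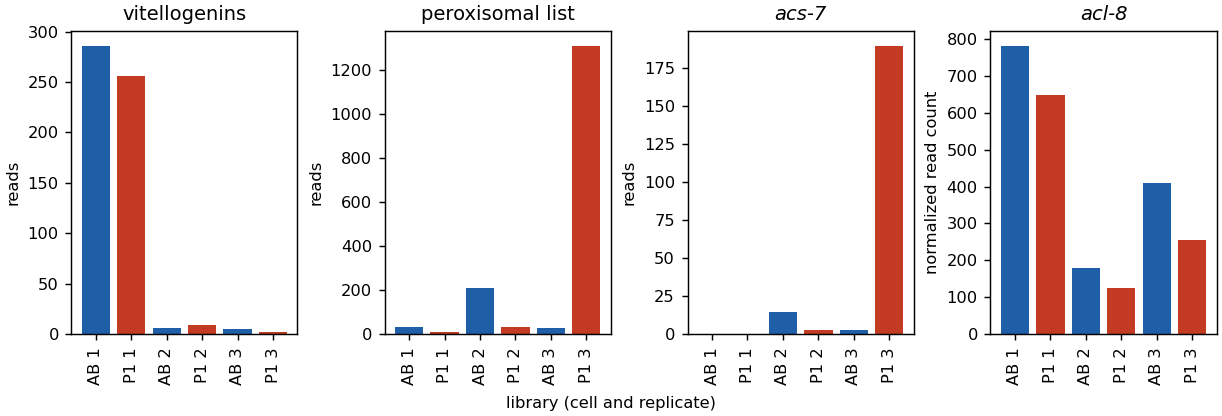
Reads on the 6 vitellogenin genes, on the 7 genes of the peroxisomal list and on *acs-7*, and the normalized read count of *acl-8*, in each library (bars from 0, blue for AB and red for P1, and the number is the replicate). Vitellogenin reads stand out in the pair of replicate 1 (286 and 256, against 2 to 9 in each other library), the peroxisomal and *acs-7* reads stand out in P1 replicate 3 (1310 and 190), and *acl-8* follows the pairs in both cells.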

How the data were processed

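RNA of 3 AB and 3 P1 libraries was counted per gene model. The authors deposited raw read counts, made with HTSeq 0.5.3 on RefSeq gene models from reads that Tagdust had filtered and TopHat 1.4.0 had aligned to ce10. They also deposited a signal, called normalized read count here, in which the authors divided the counts by 1 DESeq 1.2.1 size factor per library. Strand use in the counting is not given in the sources used here. Cell and replicate came from the labels. The replicates are separate pools of cells, and whether these came from separate cultures is not given in the sources used here, so p-values measure the spread between pools. The floors of 3 reads cover counting error only.

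The quasi-likelihood test of edgeR 4.0.16 (R 4.3.3; functions glmQLFit and glmQLFTest) was run on the counts of all 13717 gene models with a read, with TMM scaling and without a block. P-values were adjusted over all these gene models by the Benjamini-Hochberg method. The standard error of a log2 fold change was derived as its absolute value divided by the square root of the F statistic of this test. Present genes with an adjusted p under 0.10 were called. Log2 ratios within a pair used normalized read counts with a pseudocount of 1. Spliced lengths and exon overlaps came from the longest transcript and the exons in WBcel235, matched by WormBase identifier for all 84 genes, and coordinates are those of the files. Tables and plots were made with Python 3.11.15, numpy 2.4.6, pandas 2.3.3 and matplotlib 3.10.9. The edgeR test was tested on simulated data.

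The genes named were every called gene, the 3 present genes with the highest mean in each family, the 5 with the smallest p among pairs and the 3 with the largest change that were not called. A few others were added for their role after their values were seen. The genes and lists were chosen with earlier results of these data known. Matched cells were pooled for each replicate per the study's methods, and deviations from the cell means correlated at 0.175, 0.220 and 0.173 within pairs and at -0.219 to 0.080 between different numbers, so the pairs were also fitted as a block. Further alternatives were other filters, a stricter threshold, scaling by median-of-ratios size factors, DESeq2 1.42.0 and the omission of each library and pair. No sequence of these genes was used here.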

Additional observations from a re-analysis of the deposited data

How the results depend on the processing

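The number of genes of the set higher in P1 was 3 and became 1 with only the present genes in the fit and 1 with filterByExpr. It was 2 with DESeq2, with median-of-ratios size factors, with all gene models and with the replicate block, and 0 to 6 when a library or pair was left out (0 without AB replicate 1). The number higher in AB was 0 to 2. Calls over all present genes moved as well. Those higher in P1 were 68, and 27 with only the present genes in the fit and 27 with filterByExpr. Without a library or pair they were 44 to 293. Those higher in AB were 48, and 27 to 279 without a library or pair. The 1 gene that differed among pairs became 0 with only the present genes in the fit. The 1 called gene of the other lipid genes became 2 with DESeq2 and 2 with the replicate block, and 1 to 11 when a library or pair was left out. The replicate block otherwise ended only the call of *lbp-9* and added that of *pod-2*. Where leaving out a library or pair turned the sign, the log2 fold change ran from -1.15 to 0.21 for *fat-3*, -0.04 to 0.60 for *elo-1*, -1.58 to 5.99 for *acs-7*, -7.20 to 8.93 for *acs-14*, -0.38 to 0.27 for *acs-19*, -0.11 to 0.20 for *acdh-7*, -0.21 to 0.09 for *ech-6*, -1.05 to 0.33 for *lbp-1*, -0.03 to 0.37 for *mboa-3*, -0.18 to 0.05 for *mboa-7*, -0.21 to 0.11 for *acl-6*, -1.29 to 0.18 for *acl-8* and -0.16 to 0.17 for *acl-14*. The outer values of *acs-14* are fits against a cell with no read and bound nothing. The cause of these shifts was not tested. Of 463 fold changes of the 31 named genes under the alternatives, 403 kept their sign and their side of the threshold, 16 lost a call, 16 gained one and 28 turned their sign. Genes with few reads had wide errors: at 10 to 86 reads per library the standard error of *ech-1* was 0.85 on the log2 scale.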
